A study of Mus musculus with 2 samples.

Results

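Neural cells of the embryonic mouse tail region were sorted into a dorsal and a ventral class by transcripts of 4 transcription factor genes: Pax3 (ENSMUSG00000004872) and Pax7 (ENSMUSG00000028736) for dorsal, Nkx2-9 (ENSMUSG00000058669) and Nkx6-1 (ENSMUSG00000035187) for ventral. Of 48694 barcodes in the series, 19550 had at least 2000 unique molecular identifiers (UMIs), at least 1000 genes and 0.3 to 10% mitochondrial UMIs. Of these, 1612 were kept as neural cells, with at least 3 UMIs of Sox1, Sox2, Sox3 and Rfx4 together and no UMI of the mesodermal genes Tbx6, Msgn1, Tcf15 and Meox1. A cell was dorsal with at least 1 UMI of Pax3 or Pax7 and none of Nkx2-9 or Nkx6-1, and ventral in the reverse case. This gave 361 dorsal cells (192 and 169 in replicates 1 and 2) and 290 ventral cells (127 and 163), while 28 cells held both pairs of genes and 933 held neither.

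Tissue from the tail end of the embryo was taken at embryonic day 8.5 from mice of the strain C57BL/6J, all labelled wild-type. Its RNA was read cell by cell in droplets, from the 5′ end of transcripts. There was 1 group with 2 libraries, called replicates 1 and 2, each from pooled embryos, with no treatment or genetic change stated. The sources do not say whether the pools were separate, so the spread between the libraries may be technical. Both classes came from the same tubes, and every comparison was made within a library.

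The neural tube forms from ectoderm that folds and closes along the back of the embryo. Sonic hedgehog from the notochord and floor plate patterns its ventral side, where cells switch on Nkx6, Olig2 and Foxa2 genes. BMP and Wnt ligands from the surface ectoderm and roof plate pattern its dorsal side, where Pax3, Pax7, Msx and Zic genes are active. At the tail end of the embryo the tube is still being laid down by caudal epiblast cells, which express T, Nkx1-2, Cyp26a1, Wnt and Fgf8 genes.

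Dorsal cells made up 23.4% of the gated neural cells in replicate 1 (95% exact Clopper-Pearson interval 20.6 to 26.5%) and 21.3% in replicate 2 (18.5 to 24.3%). Ventral cells made up 15.5% (13.1 to 18.2%) and 20.6% (17.8 to 23.5%). These shares follow from the rule and depend on depth, and the intervals cover counting error only. After each cell was thinned to 5000 UMIs, Pax3 or Pax7 was found in 12.5% and 11.6% of gated cells, against 1.60% and 1.26% of endothelial barcodes, which should lack both genes and whose median depths were 20973 and 14356 UMIs against 20580 and 16037. Nkx2-9 or Nkx6-1 was found in 8.01% and 11.2% of gated cells, against 0.57% of endothelial barcodes in replicate 1 and 0 of 555 in replicate 2, which allows up to 0.662%. Without thinning the shares were 25.8% and 22.4% against 6.47% and 5.45% for Pax3 or Pax7, and 17.8% and 21.7% against 2.01% and 0.527% for Nkx2-9 or Nkx6-1. Both pairs were seen in a larger share of neural cells than of endothelial barcodes in each library.

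Many members sat at the edge of the rule. Exactly 1 class UMI placed 70 and 74 cells in the dorsal class and 60 and 86 cells in the ventral class. At least 4 class UMIs were held by 71 and 46 dorsal cells and by 26 and 43 ventral cells. The neural gate was passed with exactly 3 UMIs by 52 and 44 dorsal cells but by 10 and 10 ventral cells, and with 2 UMIs 62 and 56 further barcodes with dorsal genes and 23 and 22 with ventral genes stayed just outside. Nearly all dorsal cells were chosen by Pax3, which 187 and 169 of them held, whereas Pax7 was held by 23 and 1. In the ventral class, Nkx6-1 was held by 101 and 131 cells, Nkx2-9 by 62 and 66, and both by 36 and 34.

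The classes were alike in depth, with medians of 22270 and 16653 UMIs in dorsal cells and 21822 and 16469 in ventral cells, and median mitochondrial shares lay between 0.723% and 0.990%. The doublet caller Scrublet marked 15 and 5 dorsal cells (7.81% and 2.96%) and 18 and 6 ventral cells (14.2% and 3.68%). Over all barcodes given to it, it marked 6.69% and 1.95%, while the expected doublet rates set for it were 24.4% and 14.6%. Unmarked doublets may thus remain in both classes. Although 761 barcodes occurred in both libraries, none of them was gated as neural in both. The libraries differed in posterior Hox genes of groups 9 to 13, whose sum was higher in replicate 2 in both classes. This sum stood at 198 and 671 CPM in dorsal cells and at 161 and 484 CPM in ventral cells. CPM are UMIs of a gene per 1000000 UMIs summed over a class. More dorsal than ventral cells held a UMI of the caudal genes T, Nkx1-2, Cyp26a1 or Wnt3a (91.1% and 75.7% against 70.9% and 48.5%). More dorsal cells also held a UMI of Noto, Shh, Sox17, Foxa1, Tfap2a, Tfap2c, Grhl2 or Grhl3, genes of notochord, endoderm or surface ectoderm (50.5% and 30.2% against 19.7% and 7.36%). These differences move with every comparison below. Of the named genes that could be tested among cells without the caudal UMIs, 43 kept their direction and call status, 60 lost their call and 3 turned in sign. Among cells without UMIs of the other 8 genes these numbers were 99, 30 and 2. Their values are given below for some of these genes only.

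The 250 bases before the start of 4 genes are shown because the genes stand for both sides and for the Wnt and Hedgehog pathways. Msx1 and Ptch1 are abundant genes of the dorsal and the ventral side, and Sp5 and Prdm13 are dorsal-side genes with a match to the TCF/LEF motif of Wnt signalling. Sequences are from RefSeq on GRCm38.p6, written 5′ to 3′ on the gene's strand, with capitals at the TCF/LEF letters CTTTGAT.
Msx1 promoter, chr5:37824586-37824835, minus strand: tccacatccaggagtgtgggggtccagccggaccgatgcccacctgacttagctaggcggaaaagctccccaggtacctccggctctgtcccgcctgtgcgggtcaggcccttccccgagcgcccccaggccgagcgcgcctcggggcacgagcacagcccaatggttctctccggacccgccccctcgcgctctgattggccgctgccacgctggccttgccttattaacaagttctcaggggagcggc
Ptch1 promoter, chr13:63565736-63565985, minus strand: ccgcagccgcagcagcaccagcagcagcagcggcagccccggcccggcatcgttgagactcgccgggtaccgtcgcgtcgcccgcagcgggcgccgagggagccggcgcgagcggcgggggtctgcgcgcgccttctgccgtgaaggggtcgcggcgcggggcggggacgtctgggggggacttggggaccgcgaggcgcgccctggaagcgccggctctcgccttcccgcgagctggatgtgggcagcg
Sp5 promoter, chr2:70474673-70474922, plus strand: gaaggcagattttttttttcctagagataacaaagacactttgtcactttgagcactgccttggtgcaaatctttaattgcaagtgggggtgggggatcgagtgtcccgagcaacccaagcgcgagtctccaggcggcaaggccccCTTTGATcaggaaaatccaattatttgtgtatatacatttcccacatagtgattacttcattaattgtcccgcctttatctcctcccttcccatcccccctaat
Prdm13 promoter, chr4:21685964-21686213, minus strand: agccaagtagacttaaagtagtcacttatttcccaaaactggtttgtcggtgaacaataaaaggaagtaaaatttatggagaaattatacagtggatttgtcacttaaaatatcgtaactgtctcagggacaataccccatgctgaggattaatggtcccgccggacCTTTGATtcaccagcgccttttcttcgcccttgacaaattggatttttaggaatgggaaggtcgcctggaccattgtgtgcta
The 3 motifs searched on both strands were CTTTGAT, the GLI letters GACCACCCA, and GGCGCC, a BMP-responsive element that is its own reverse complement. None of them contains another. The TCF/LEF letters were in 6 of 150 promoters of genes higher in dorsal cells (4%), in 7 of 193 of genes higher in ventral cells (3.63%), in 3.21% of all 32851 promoters and in 2.26% of the promoters of all genes tested. The GLI letters were in 0 of 150, in 1 of 193 and in 0.225% of all promoters, and the Ptch1 window held none. GGCGCC was in 21.3%, 14.5% and 9.59%, and in 17.7% of the promoters of all genes tested. A match is a run of letters in this window and not a site.

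Gene by gene, 158 of 10906 genes tested were higher in dorsal cells (1.45%) and 176 were higher in ventral cells (1.61%), which is 3.06% in either direction (edgeR quasi-likelihood test with library as block, Benjamini-Hochberg adjusted p under 0.05). The genes used to choose the cells were left out. The largest differences in abundant genes were in Msx1, Zic2, Zic5 and Sema3a on the dorsal side and in Timp3, Ptch1, Hsd11b2 and Trp53i11 on the ventral side. Of the 334 genes, 323 had the same sign in both libraries. The number depended on the library block. Without it, 0 genes were higher in dorsal cells and 1, Ptch1, was higher in ventral cells, with 244 genes at an unadjusted p under 0.05. DESeq2's Wald test called 55 in each direction.

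**Figure D1:**
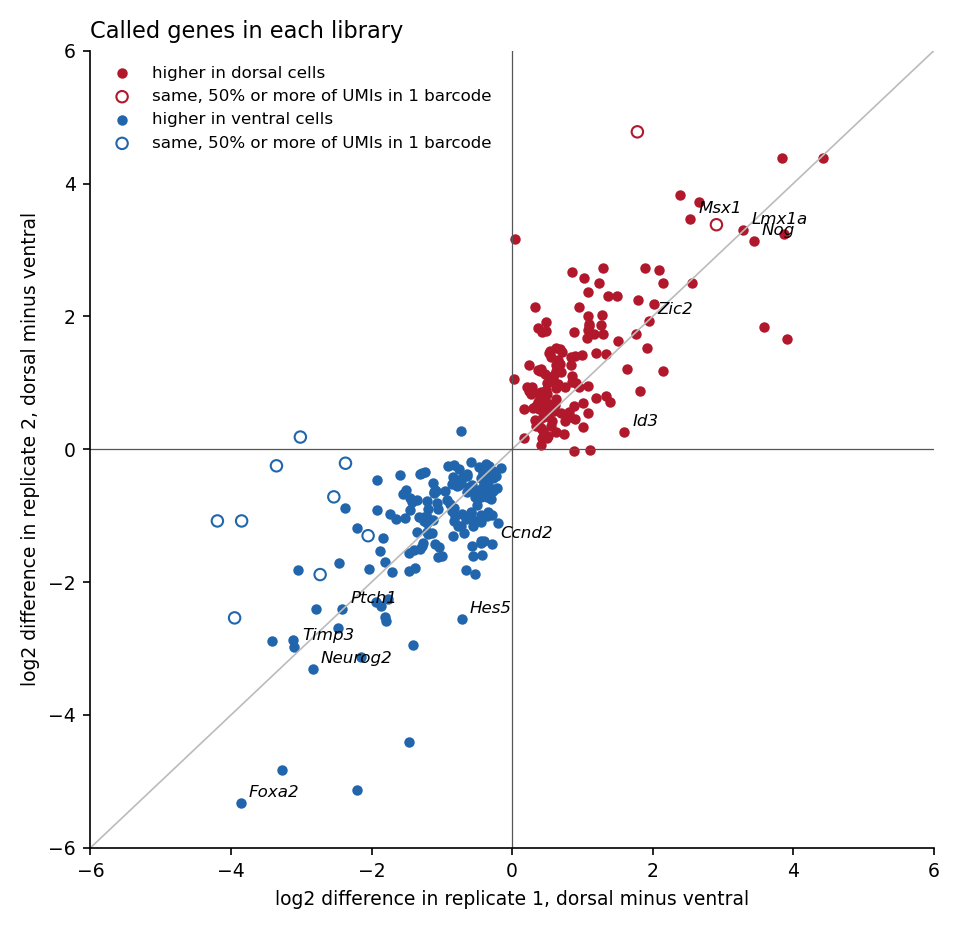
Log2 difference between dorsal and ventral cells in replicate 1 (x axis) against replicate 2 (y axis) for 312 of the 334 called genes; the other 22 have no UMI in 1 class of 1 library. Red points are higher in dorsal cells, blue points in ventral cells, and open points are genes in which 1 barcode holds 50% or more of the UMIs of the higher class in a library; most filled points lie at the lower left and upper right.

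Dorsal patterning factors separated the classes. Of 21 genes on that list, 13 passed the filter on low counts, 11 of these were higher in dorsal cells and 1 was higher in ventral cells, with a median log2 difference of 2.19 against 0.00 over all genes tested. Msx1, a homeobox gene switched on by BMP signalling (chr5:37820491-37824585, mm10), stood at 317 and 318 CPM in dorsal cells and at 54.7 and 28.9 CPM in ventral cells. The log2 difference was 2.92 ± 0.13 (SE, adjusted p = 2.6e-18), and the dorsal values of both libraries lay far above both ventral values. After thinning to 10000 UMIs, Msx1 was found in 73.7% and 79.5% of dorsal and 32.8% and 20.5% of ventral cells. It was also found in 56.7% and 45.5% of endothelial barcodes, so it was not particular to neural cells. Zic2, a zinc finger gene needed for closing the neural tube, stood at 115 and 155 CPM against 29.6 and 40.4 CPM, a log2 difference of 1.93 ± 0.12 (adjusted p = 2.6e-14). Its neighbour in the family, Zic5, stood at 81.8 and 102 CPM against 31.7 and 20.6 CPM.

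Several roof plate and dorsal progenitor genes were found almost only in dorsal cells. Wnt1, a ligand of the dorsal midline, had 7.41 and 4.10 CPM in dorsal cells and no UMI in ventral cells, which makes it at least 11.54-fold higher against a floor of 3 UMIs over both libraries. Zic1 had 6.52 and 4.44 CPM and no ventral UMI, at least 10.8-fold higher. Both rested on few cells, since Wnt1 was found in 11 and 7 dorsal cells. Msx3, a homeobox gene particular to the dorsal neural tube, stood at 9.21 and 12.3 CPM against 1 UMI in all ventral cells, a ratio of 59.2 with a counting interval from 10.3 to 2370. Lmx1a, a roof plate regulator, had 6.74 and 17.8 CPM against 0.689 and 1.81 CPM. Olig3, which marks dorsal interneuron progenitors and also a more ventral domain, was the exception: 5.62 and 3.08 CPM in dorsal cells against 12.05 and 8.30 CPM in ventral cells (log2 difference -1.23 ± 0.34, adjusted p = 0.035).

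**Figure D2:**
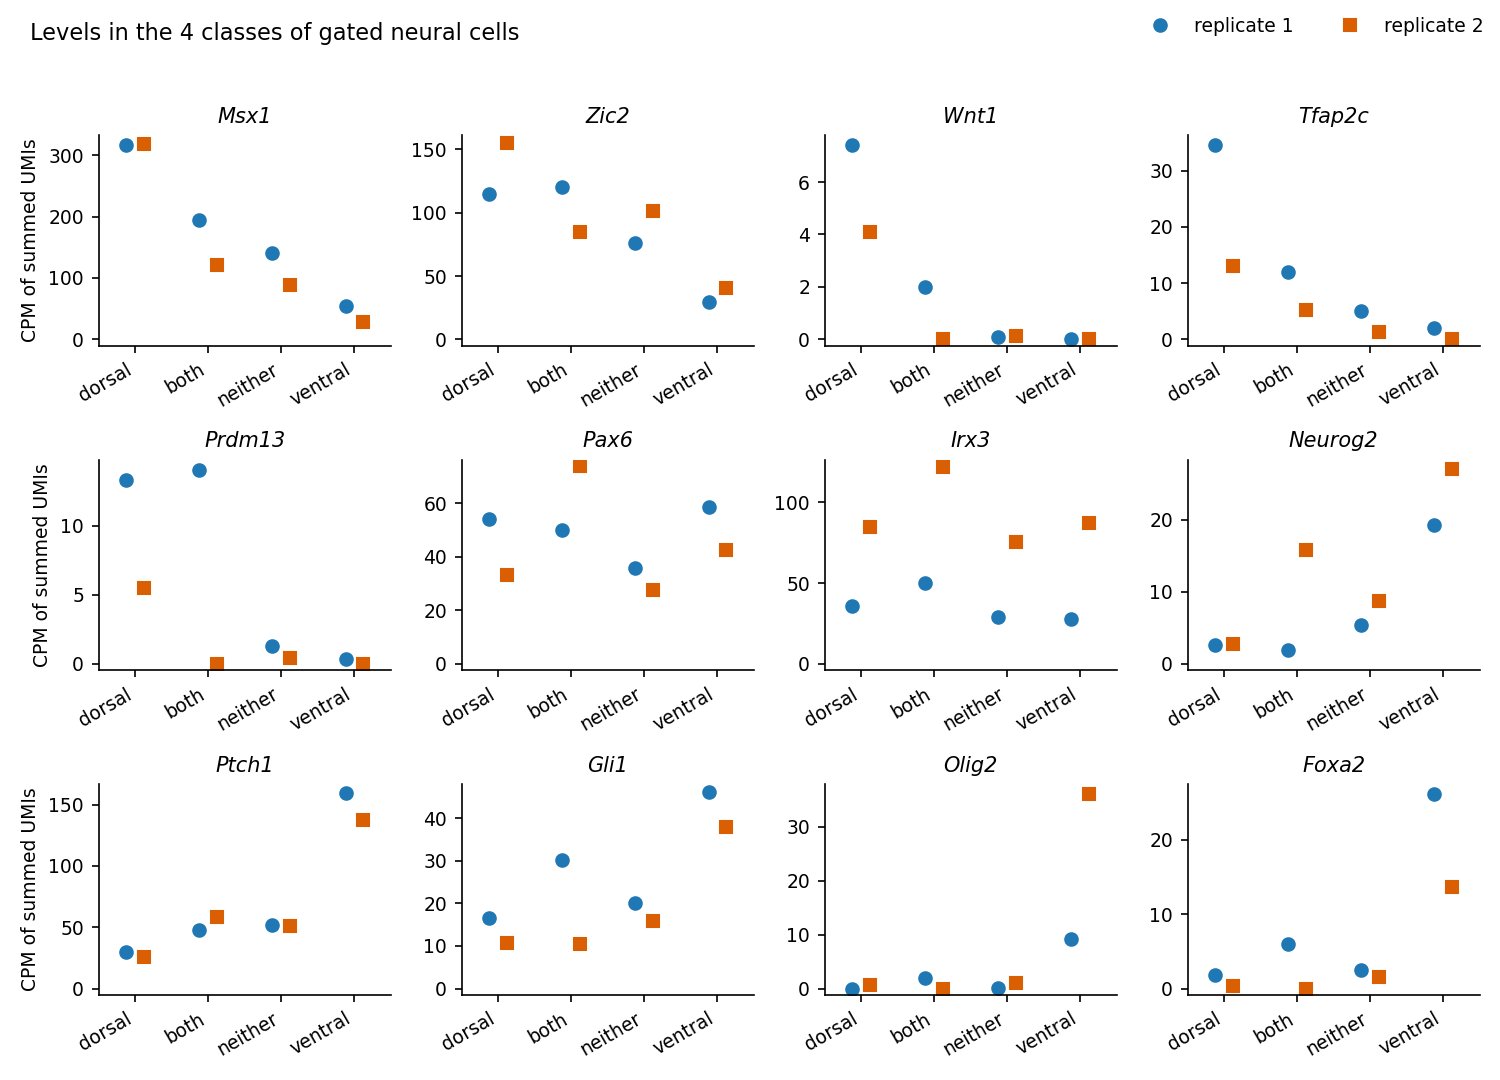
CPM of 12 genes (y axes, each from about 0) in dorsal cells, cells with both pairs of genes, cells with neither and ventral cells, with circles for replicate 1 and squares for replicate 2. Msx1, Zic2, Wnt1, Tfap2c and Prdm13 are highest or near highest in dorsal cells, Ptch1, Gli1, Olig2 and Foxa2 in ventral cells, and Pax6 and Irx3 overlap.

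Hedgehog readouts marked the ventral class. Ptch1 encodes the Hedgehog receptor and is itself switched on by the pathway; its gene model spans chr13:63508328-63573460 (mm10), so the RefSeq start shown above lies inside it. It stood at 29.9 and 26.0 CPM in dorsal cells and at 160 and 137 CPM in ventral cells, with a log2 difference of -2.40 ± 0.11 (adjusted p = 1e-17). After thinning to 10000 UMIs, Ptch1 was found in 21.1% and 20.5% of dorsal and 61.5% and 66.0% of ventral cells. It was also found in 27.2% and 28.4% of endothelial barcodes. Gli1, the transcription factor most directly induced by the pathway, stood at 16.6 and 10.6 CPM against 46.1 and 37.9 CPM. Hhip, a secreted inhibitor that responds to the pathway, had a log2 difference of -2.12 ± 0.44. In Ptch1 and Gli1 the ventral values of both libraries lay above both dorsal values.

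Other members of the Hedgehog list went the opposite way. Of 24 genes, 20 were tested, 4 were higher in ventral cells and 3 in dorsal cells, with a median of 0.10. The 3 were the co-receptor genes Gas1 (71.0 and 120 CPM in dorsal cells, 42.0 and 62.8 in ventral cells) and Boc (19.8 and 23.6 against 4.48 and 10.5 CPM), and Gli3, the main repressor of the pathway (59.3 and 94.4 against 45.8 and 58.8 CPM). Cdon, also a co-receptor gene, did not pass the test, at 13.7 and 11.6 against 5.85 and 7.58 CPM (adjusted p = 0.093). Gli2, the main activator, stood at 25.8 and 38.6 against 27.9 and 44.0 CPM (adjusted p = 0.83). The ligand gene Shh was at 1.57 and 1.03 CPM in dorsal and at 0.689 and 1.81 CPM in ventral cells, too low to be tested.

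Ventral patterning factors also separated the classes. Of 16 genes, 6 were tested and 4 of these were higher in ventral cells, with a median of -2.87. Olig2, which defines the progenitors of motor neurons (chr16:91225550-91228677), had 2 UMIs in all dorsal cells and 9.30 and 36.1 CPM in ventral cells, a ratio of 82.5 with a counting interval from 22.4 to 689. Foxa2, the floor plate regulator (chr2:148042877-148046969), stood at 1.80 and 0.342 CPM against 26.2 and 13.7 CPM, a log2 difference of -4.09 ± 0.40 (adjusted p = 4.2e-09). The libraries were ordered oppositely, with more Foxa2 in ventral cells of replicate 1 and more Olig2 in those of replicate 2. After thinning to 10000 UMIs, Foxa2 was found in 18.9% and 9.62% of ventral cells, in 1.58% and 0% of dorsal cells and in 1.33% and 0.219% of endothelial barcodes. Nkx6-2, a partner of Nkx6-1, had 0.674 and 0.342 CPM against 6.54 and 9.75 CPM, and Ntn1, which encodes the guidance cue netrin of the floor plate, had 8.09 and 5.47 against 27.5 and 26.0 CPM. Nkx2-2, which marks the progenitors next to the floor plate, had no UMI in dorsal cells and 0.344 and 1.08 CPM in ventral cells.

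Genes of the middle of the tube differed little or in opposite directions. Of 11 listed genes 10 were tested, with 2 higher in each class and a median of 0.20. Pax6, expressed broadly between the poles, stood at 54.4 and 33.2 CPM in dorsal cells and at 58.9 and 42.6 CPM in ventral cells (adjusted p = 0.72), and Irx3 at 36.2 and 84.8 against 27.5 and 87.0 CPM (adjusted p = 0.89). Prdm13, a regulator of dorsal interneuron fates, stood at 13.3 and 5.47 CPM in dorsal cells against 1 ventral UMI, a ratio of 57.7 with a counting interval from 10.04 to 2309. Sp8 was slightly higher in dorsal cells (log2 difference 0.56 ± 0.15), while Irx1 (-0.60 ± 0.15) and Gbx2 (-0.64 ± 0.14) were higher in ventral cells. Irx1 was at 0.066 among cells without caudal UMIs and at -0.041 after thinning to 5000 UMIs, and Sp8 was at -0.071 after thinning.

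A few BMP readouts and antagonists were higher in dorsal cells. Of 31 BMP pathway genes, 23 were tested, 4 were higher in dorsal cells and none in ventral cells, with a median of 0.10. Id3, a standard BMP target, stood at 944 and 552 CPM in dorsal cells and at 312 and 460 CPM in ventral cells. Its log2 difference was 1.60 in replicate 1 and 0.26 in replicate 2, so the size rests mainly on replicate 1 (0.88 ± 0.17 together, adjusted p = 0.00067). Id2 stood at 141 and 187 against 111 and 119 CPM. Nog, which encodes the secreted antagonist noggin, stood at 18.6 and 12.6 against 1.72 and 1.44 CPM, a log2 difference of 3.29 ± 0.39 (adjusted p = 2.7e-07). Bmper, a secreted modulator of BMPs, had 4.94 and 7.52 CPM against 2 ventral UMIs. The ligand gene Bmp7 did not pass the test, at 13.7 and 6.84 against 8.26 and 0.722 CPM (adjusted p = 0.095).

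Wnt pathway genes were called in both directions. Of 48 listed genes 38 were tested, 12 were higher in dorsal cells and 6 in ventral cells, with a median of 0.24. The dorsal 12 held all 5 called ligand genes (Wnt1, Wnt3a, Wnt4, Wnt5a and Wnt5b), the enhancer Rspo3, the feedback genes and targets Axin2, Notum, Sp5 and Tcf7, the transcription factor Sp8 and the receptor gene Fzd10 (107 and 135 against 83.0 and 82.0 CPM). Wnt3a stood at 20.4 and 19.1 CPM against 5.51 and 2.89 CPM, and Sp5, which carries the TCF/LEF letters shown above, at 116 and 48.2 against 80.6 and 17.7 CPM. The ventral 6 were the secreted inhibitor gene Sfrp1 (69.0 and 44.4 against 127 and 78.7 CPM), 3 receptor genes (Fzd2, Fzd7 and Fzd9), and the transcription factors Tcf7l1 and Tcf7l2. Among cells without the caudal UMIs, Sp5 (log2 difference 0.45) and Sfrp1 (-0.27) no longer passed the test.

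A few genes of neuron formation differed. Neurog2, which commits progenitors to become neurons, stood at 2.70 and 2.73 CPM in dorsal cells and at 19.3 and 27.1 CPM in ventral cells, a log2 difference of -3.03 ± 0.32 (adjusted p = 1.5e-08), and was found in 27 and 39 ventral cells but in 7 and 6 dorsal cells. Of 32 neurogenesis genes 15 were tested, 4 were higher in ventral cells (Neurog2, Elavl4, Gadd45g and Btg2) and 1, the tubulin gene Tubb3, in dorsal cells, with a median of -0.20. In Gadd45g, 57.1% of the ventral UMIs of 1 library came from 1 barcode. The Notch ligand gene Dll1, expressed by new neurons and by mesoderm, stood at 11.7 and 14.0 against 28.2 and 37.2 CPM. Hes5, the main Notch target of neural progenitors, stood at 12.1 and 21.9 CPM in dorsal cells and at 19.97 and 129 CPM in ventral cells, so the difference was far larger in replicate 2 (-2.56) than in replicate 1 (-0.72). Notch1 and Nrarp were also higher in ventral cells, while Hes3 and Hes7 were higher in dorsal cells, which made 4 and 2 of 19 Notch pathway genes tested. Among cells without caudal UMIs, Hes5 kept its call (-2.47) and Neurog2 (-2.57) and Dll1 (-0.21) did not.

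Of 18 tested general progenitor genes, 7 were higher in ventral cells (Sox21, Hes5, Fam181a, Notch1, Pou3f1, Pou3f2 and Foxb1) and 1, Crabp1, in dorsal cells, with a median of -0.17. Foxb1, a forkhead gene of the early neural tube, stood at 69.0 and 83.8 against 124 and 112 CPM. The neural genes of the gate were not tested, and more dorsal than ventral cells lay at its minimum, as given above. Among cells without caudal UMIs, Sox21 was at -0.092 and Fam181a at -0.30, against -1.05 and -0.66 in the main test. Hes5 (-2.47) and Notch1 (-2.11) were larger in size there than in the main test, while Pou3f1 was at -0.69, Pou3f2 at -0.78 and Foxb1 at -0.69.

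Caudal genes were higher in dorsal than in ventral cells, but their summed level was highest in cells with neither pair of class genes. The 18 listed genes together stood at 2544 and 1833 CPM in those cells. The sums were 1900 and 1658 CPM in dorsal cells and 1415 and 827 CPM in ventral cells. Of 18 caudal epiblast genes, all tested, 13 were higher in dorsal cells and none in ventral cells, with a median of 0.78. Fgf8, the main growth factor of the tail end, stood at 88.5 and 115 CPM against 48.2 and 33.9 CPM, a log2 difference of 1.27 ± 0.14 (adjusted p = 1.1e-07). Cyp26a1, which destroys retinoic acid there, stood at 64.3 and 80.7 against 26.9 and 22.02 CPM, and T, the gene of brachyury, at 28.5 and 25.3 against 13.4 and 6.86 CPM. Cdx4, a homeobox gene of the posterior body, stood at 211 and 306 against 139 and 152 CPM and kept its call among cells without the 4 caudal genes (log2 difference 0.94, adjusted p = 0.0085). With at least 2 class UMIs, Fgf8 (0.59) and T (0.82) no longer passed the test.

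Some posterior Hox genes were higher in dorsal than in ventral cells. In cells with neither pair of class genes, summed genes of groups 9 to 13 stood at 280 and 659 CPM, against 198 and 671 CPM in dorsal cells. Of 7 tested genes of groups 9 to 13, 2 were higher in dorsal cells (Hoxa9 and Hoxc9, median 0.84), as were 3 of 7 of groups 6 to 8 (Hoxc6, Hoxa7 and Hoxc8, median 0.56), 0 of 7 of groups 4 and 5 and 1 of 8 of groups 1 to 3. None was higher in ventral cells. Hoxa9 stood at 40.9 and 147 CPM in dorsal cells and at 20.3 and 91.3 CPM in ventral cells, and each class was higher in replicate 2. Hoxb9 did not pass the test, at 136 and 325 against 117 and 300 CPM (adjusted p = 0.83). Among cells without caudal UMIs, Hoxc8 kept its call (0.94) and Hoxa9 (0.89) did not.

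FGF and retinoic acid genes were also compared. Of 21 tested FGF genes, 6 were higher in dorsal cells (Fgf8, Fgf17, Spry1, Spry4, Dusp4 and Etv4) and none in ventral cells, with a median of 0.10. Fgf17 stood at 35.7 and 92.3 against 19.97 and 38.3 CPM. Of 16 retinoic acid genes, 3 were higher in dorsal cells: Aldh1a2, which makes retinoic acid (65.4 and 55.0 against 31.0 and 28.5 CPM), the binding protein gene Crabp1 (472 and 173 against 245 and 90.3 CPM) and Cyp26a1. The receptor gene Rarb and the uptake gene Stra6 were higher in ventral cells, and so was Rbp4, 90.9% of whose ventral UMIs in replicate 1 came from 1 barcode.

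**Figure D3:**
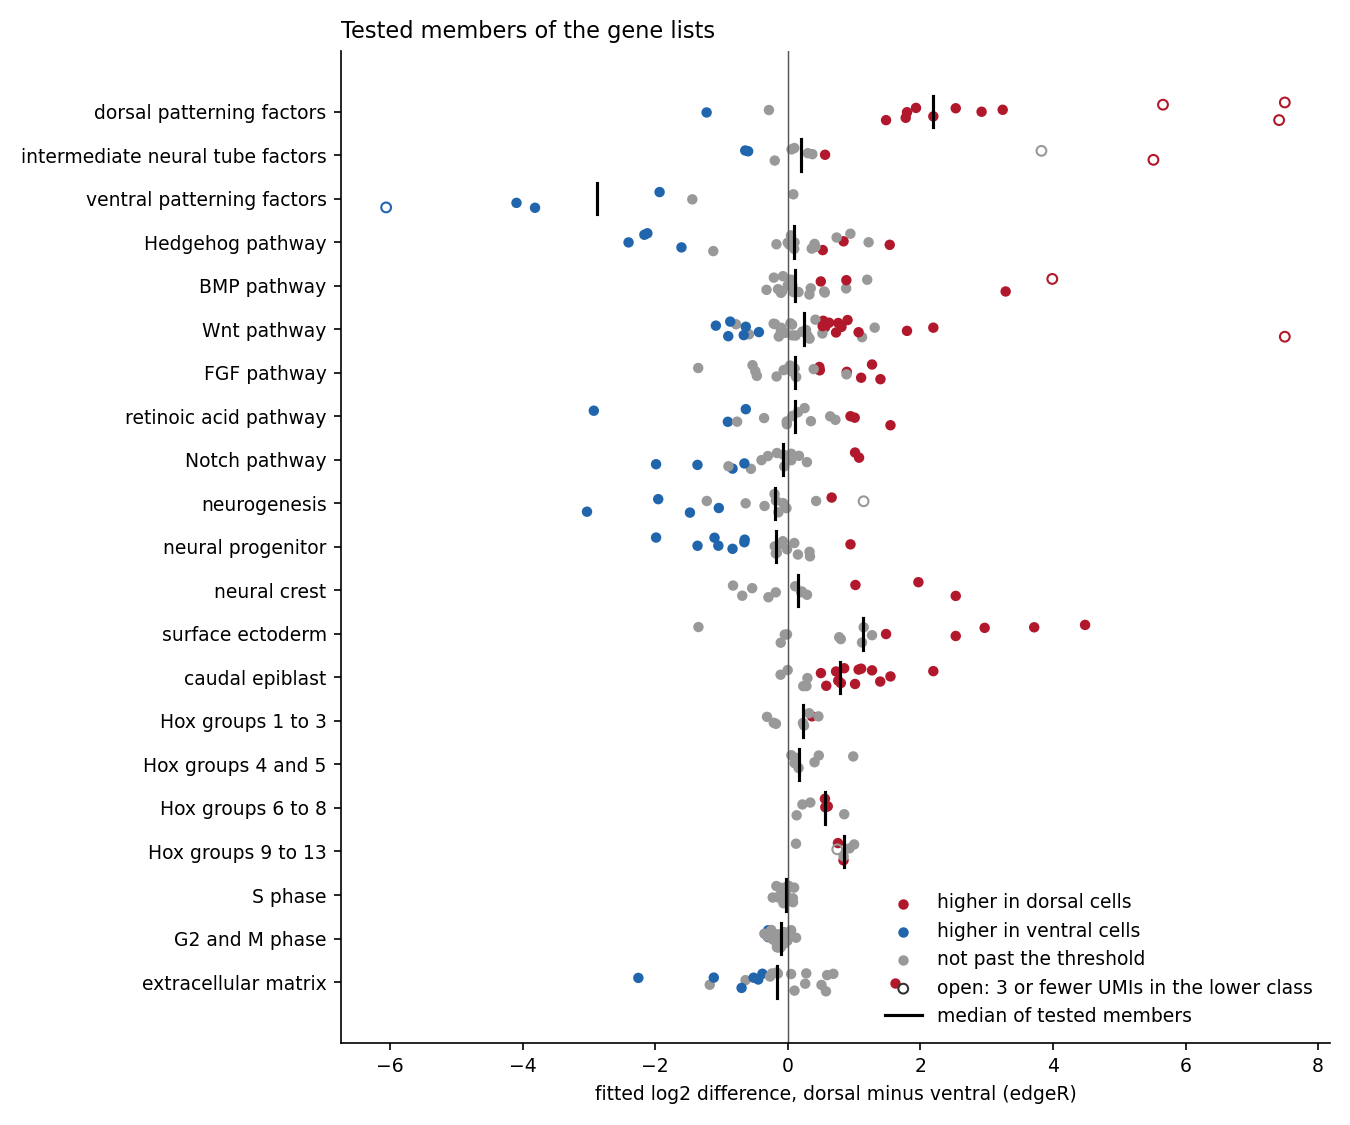
Fitted log2 difference, dorsal minus ventral (x axis), of the tested members of 21 gene lists (rows). Red and blue points passed the test, grey points did not, black bars are medians, and open points, whose fitted size is no bound, have 3 or fewer UMIs in the lower class; medians lie farthest from 0 for ventral (-2.87) and dorsal (2.19) patterning factors.

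Genes of the cell surface and matrix gave both directions. Sema3a, a repellent guidance cue, stood at 53.5 and 124 CPM in dorsal cells and at 14.1 and 43.0 CPM in ventral cells, a log2 difference of 1.62 ± 0.14 (adjusted p = 1.7e-10). Its relative Sema3e had the reverse pattern, at 41.6 and 41.7 against 130 and 86.6 CPM (-1.40 ± 0.12). Draxin, another repellent of the dorsal tube, stood at 10.1 and 6.84 against 0.689 and 0.722 CPM. Timp3, which encodes an inhibitor of matrix proteases, had the largest difference among abundant genes, at 6.07 and 11.96 CPM in dorsal cells and 52.0 and 93.9 CPM in ventral cells (-3.03 ± 0.18, adjusted p = 1.3e-14). Of 21 tested matrix genes, 6 were higher in ventral cells (Col4a1, Fn1, Vcan, Fbln2, Fbn2 and Spon1) and 1, Hapln1, in dorsal cells, with a median of -0.17. Spon1, the floor plate protein spondin, stood at 6.74 and 7.18 against 17.9 and 55.6 CPM. The laminin receptor gene Itga6 stood at 39.5 and 36.6 against 95.7 and 101 CPM.

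Of 17 tested Eph receptor and ephrin genes, 4 were higher in dorsal cells and 1 in ventral cells, with a median of 0.22. Epha1, Epha4 and Epha5 and the ligand gene Efna1 were the dorsal ones, and Efnb1 was the other. Epha1 stood at 45.4 and 16.4 against 22.7 and 6.14 CPM.

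Most cell cycle genes differed little. Over all genes tested 3.06% were called in either direction, so the absence of calls among 20 genes says little about that list. None of 20 S phase genes was called (median -0.03), nor were 20 of 22 genes of the G2 and M phases (median -0.11), the 2 others being Mki67 and Cenpf, both higher in ventral cells (log2 difference -0.30 for each). Ccnd2, which encodes cyclin D2 and drives entry into S phase, stood at 344 and 481 CPM in dorsal cells and at 419 and 1291 CPM in ventral cells. Its log2 difference was -0.28 in replicate 1 and -1.42 in replicate 2, and DESeq2 did not call it. Cdk6, its kinase partner, was also higher in ventral cells (-0.61 ± 0.15). Ccnd2 and Cdk6 were the 2 genes called among 13 tested cyclin and inhibitor genes.

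Genes of other cell types moved with the classes. Of 14 tested surface ectoderm genes, 5 were higher in dorsal cells (Tfap2a, Tfap2c, Grhl3, Dlx5 and Msx2) and none in ventral cells, and the summed level of the 17 listed genes was 472 and 187 CPM in dorsal and 414 and 63.5 CPM in ventral cells. Tfap2c, a factor of surface ectoderm and the neural plate border, stood at 34.6 and 12.99 CPM against 2.07 and 0 CPM. It was found in 68 and 24 dorsal cells, and Msx1 stood at 445 and 566 CPM in these and at 237 and 270 CPM in the other dorsal cells. Among cells without any of the 8 genes of notochord, endoderm and surface ectoderm, 96 genes were higher in dorsal and 117 in ventral cells, with Msx1 (2.84), Zic2 (1.73), Ptch1 (-2.18), Olig2 (-5.53) and Foxa2 (-6.20) all called. How far surface ectoderm or border cells account for the rest was not tested.

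Of 12 neural crest genes tested, Sox9, Tfap2a and Pdgfra were higher in dorsal cells and none was higher in ventral cells. Sox9 turned to -0.38 without UMIs of notochord, endoderm and surface ectoderm genes and to -0.85 with a neural gate of at least 5 UMIs, and Tfap2a could not be tested there. The summed level of 19 crest genes was 187 and 269 CPM against 157 and 209 CPM. The crest gene Foxd3 had 2.47 and 6.84 CPM in dorsal cells and no UMI in ventral cells, at least 7.95-fold higher and too low for the test, while Sox10 was at 0.674 and 0 CPM. Summed endoderm genes stood at 390 and 150 CPM in dorsal cells and at 616 and 161 CPM in ventral cells, with Foxa2, Spink1 and Trh called on the ventral side. Spink1 owed 79.0% of its ventral UMIs in replicate 1 to 1 barcode. The notochord gene Noto had no UMI in ventral cells. Foxa2 is a gene of floor plate, notochord and endoderm, and which of these its ventral UMIs came from was not tested. Summed notochord and node genes stood at 310 and 131 CPM in dorsal and at 381 and 69.0 CPM in ventral cells.

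The called genes of lateral plate mesoderm, endothelium and blood were all higher in ventral cells, while the presomitic list gave Hes7 and Rspo3 for dorsal and Dll1 for ventral cells and the somite list gave Aldh1a2 for dorsal cells. The first were Foxf1 and Gata6 of lateral plate mesoderm (summed list 182 and 85.1 CPM in dorsal, 227 and 75.8 CPM in ventral cells) and Kdr and Sox18 of endothelium (39.8 and 37.6 against 79.9 and 58.8 CPM). Haemoglobin levels rested on few barcodes. Hbb-y had no UMI in replicate 1 and 98.8 against 1237 CPM in replicate 2, where 46.6% of the ventral UMIs came from 1 barcode. Without the gated barcodes with at least 20 haemoglobin or visceral endoderm UMIs, 7 of which were dorsal or ventral, Hbb-y differed by 0.092 on the log2 scale, and 189 and 193 genes were called. In all, 2 genes called for dorsal and 20 called for ventral cells had 50% or more of their UMIs of a library in 1 barcode. Forebrain and midbrain genes were nearly absent, with summed levels of 22.2 and 15.7 CPM in dorsal and 13.1 and 5.42 CPM in ventral cells.

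Levels varied with the number of class UMIs a cell held, which is given as a description because depth and class genes are shared. Msx1 stood at 264, 307 and 371 CPM in dorsal cells of replicate 1 with 1, 2 to 3 and at least 4 Pax3 or Pax7 UMIs, and at 157, 262 and 599 CPM in replicate 2. Id3 stood at 554 CPM in the lowest and 1264 CPM in the highest step in replicate 1, and at 321 and 918 CPM in replicate 2. Cdx4 ran the other way, at 301, 252 and 106 CPM in replicate 1 and 347, 321 and 234 CPM in replicate 2, and so did Fgf8, with 156 and 185 CPM in the lowest and 12.99 and 33.6 CPM in the highest step. Other caudal genes did not all follow this order, since Cyp26a1 in replicate 1 stood at 65.9, 81.4 and 52.0 CPM. Median depth was 21682.5 UMIs in the lowest and 24330 in the highest step in replicate 1, and 15939.5 and 17402 in replicate 2.
Ptch1 stood at 95.3, 172 and 285 CPM in ventral cells of replicate 1 with 1, 2 to 3 and at least 4 class UMIs, and at 90.8, 140 and 219 CPM in replicate 2. Even with 1 class UMI it was above the 29.9 and 26.0 CPM of dorsal cells. Foxa2 stood at 8.06 and 2.86 CPM in the lowest and at 75.4 and 37.5 CPM in the highest step. Dorsal cells with 1 class UMI likewise held more Msx1 than any ventral group. For Id3 and Fgf8 the edge differed from the inside. Id3 in replicate 2 stood at 321 CPM in dorsal and 390 CPM in ventral cells with 1 class UMI and at 918 and 566 CPM with at least 4, and Fgf8 in replicate 1 at 156 and 38.1 CPM and at 12.99 and 22.95 CPM.

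**Figure D4:**
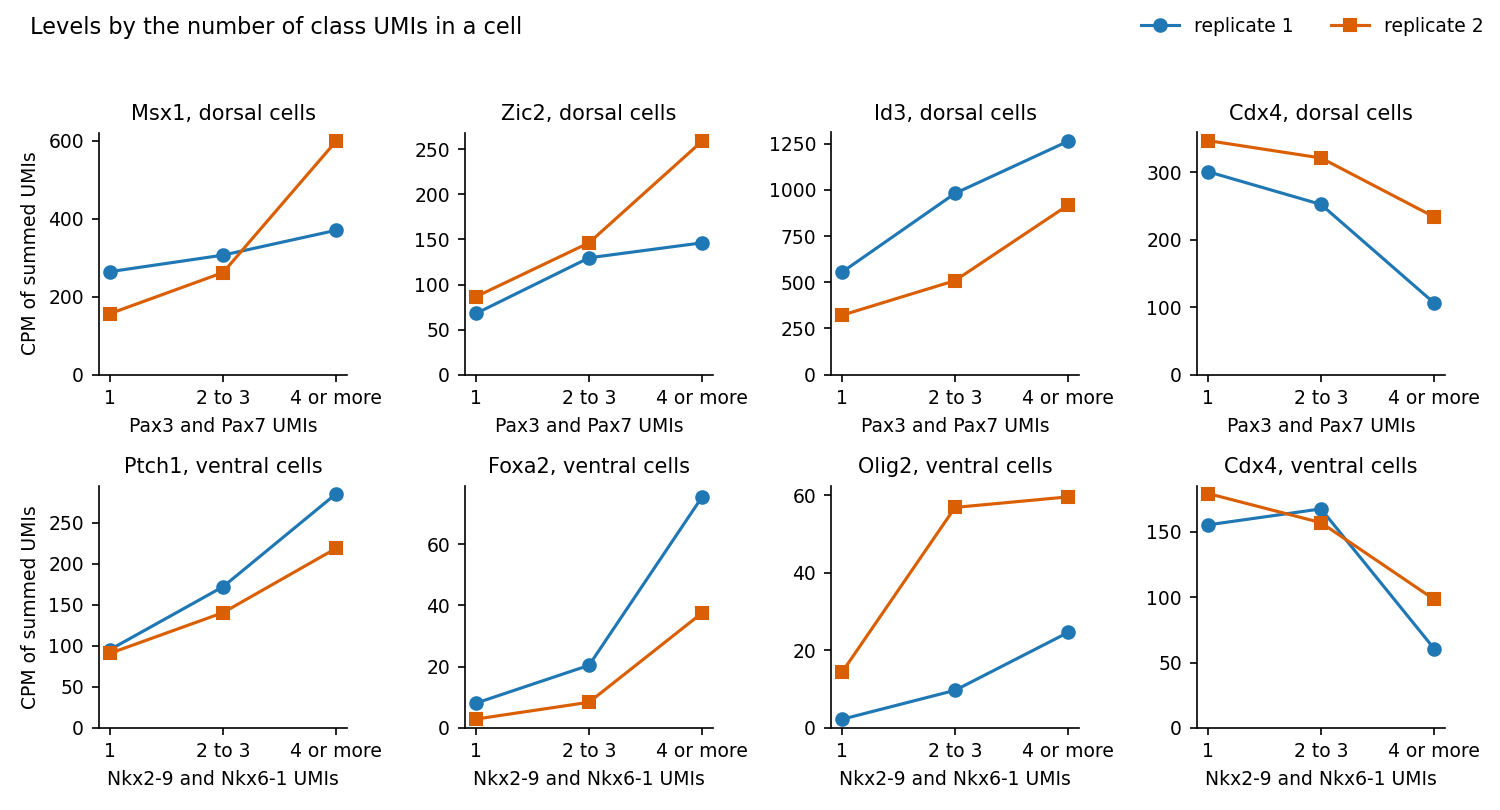
CPM (y axes, from 0) of 4 genes in dorsal cells (top) and ventral cells (bottom) by the number of class UMIs in a cell (x axes), with circles for replicate 1 and squares for replicate 2. Msx1, Zic2 and Id3, and Ptch1, Foxa2 and Olig2, are highest at 4 or more class UMIs, and Cdx4 is lowest there.

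The ventral class was not uniform. By the class gene found, 26 and 32 cells held Nkx2-9 without Nkx6-1, 36 and 34 held both and 65 and 97 held Nkx6-1 alone. Foxa2 stood at 39.2 and 21.3 CPM with Nkx2-9 alone, at 53.2 and 35.4 CPM with both and at 5.46 and 3.06 CPM with Nkx6-1 alone. Ptch1 had the same order, at 193 and 165, 275 and 229, and 81.2 and 93.7 CPM. Pax6 was highest with Nkx6-1 alone in both libraries, at 67.5 and 62.5 CPM, against 50.8 and 19.3 CPM with both and 49.0 and 7.74 CPM with Nkx2-9 alone. Nkx2-9 is known as a gene of the most ventral progenitors, and Nkx6-1 as one of a broader domain that reaches farther dorsally. Olig2 was highest in cells with both genes, at 20.6 and 69.3 CPM. At the single-cell level Foxa2 was found in 38 and 22 ventral cells and Olig2 in 15 and 39, and 9 and 9 cells held both.

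**Figure D5:**
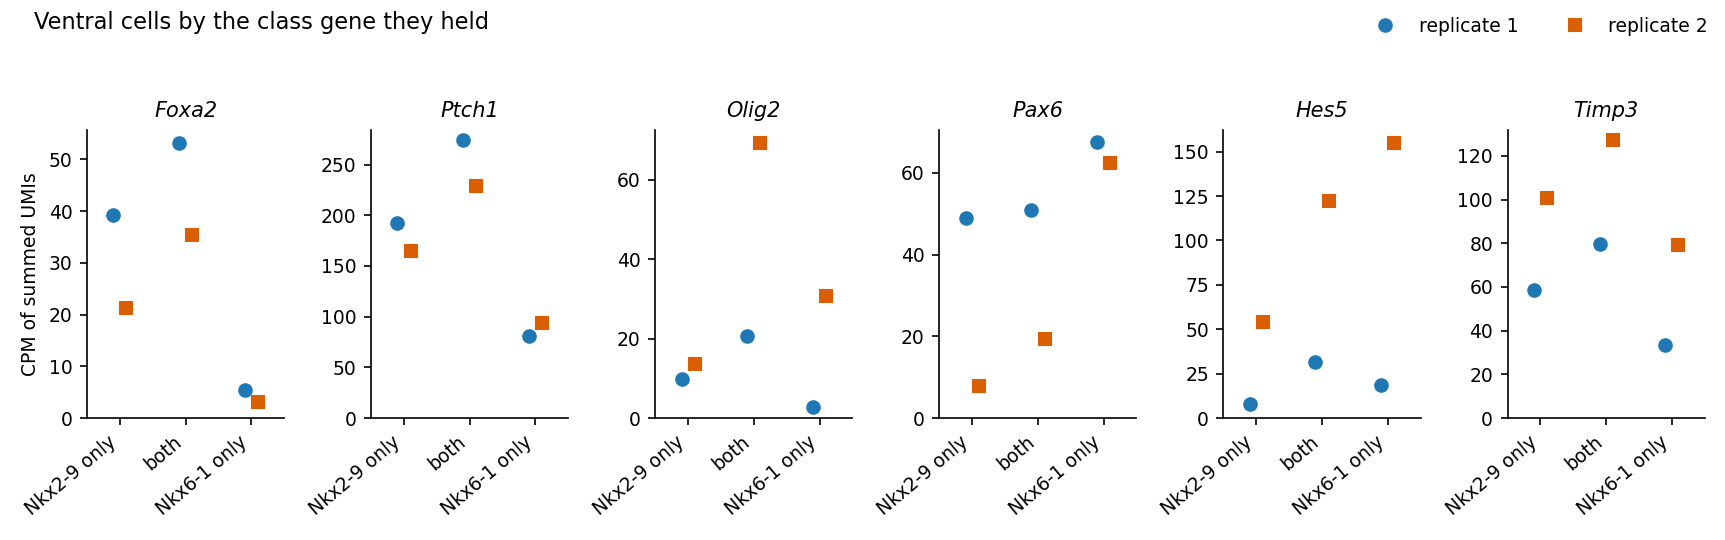
CPM (y axes, from 0) of 6 genes in ventral cells with Nkx2-9 alone, with Nkx2-9 and Nkx6-1, and with Nkx6-1 alone, with circles for replicate 1 and squares for replicate 2. Foxa2 and Ptch1 are lowest and Pax6 is highest with Nkx6-1 alone.

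Cells with both pairs of class genes were few, 19 and 9, of which Scrublet marked 4 and 0, and 7 and 4 of them held only 1 UMI of each pair. Msx1 stood at 195 and 122 CPM and Ptch1 at 48.1 and 58.2 CPM in them, between the dorsal and ventral values. The 933 cells with neither pair were likewise between the classes in Msx1 (141 and 89.3 CPM) and Ptch1 (51.7 and 51.3 CPM), and they had the highest Cdx4 of the 4 classes in both libraries, at 294 and 343 CPM.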

How the data were processed

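Caudal tissue of day 8.5 embryos was measured in 2 libraries. The deposited values are raw counts of UMIs per gene and barcode, made by the authors with Cell Ranger 6.1.1 on mm10, per the submitters' processing notes; no source names the annotation release. The libraries held 295866003 and 150964773 UMIs, and 4451237 and 2925257 UMIs fell in dorsal and 2904759 and 2769934 in ventral cells. UMIs were summed per class (dorsal, ventral, both, neither) and library. Genes passing filterByExpr were tested with edgeR 4.0.16 (quasi-likelihood, TMM scaling, class and library in the design, two-sided, Benjamini-Hochberg over all genes tested, threshold 0.05), leaving out the 12 genes of the gate and classes. The procedure was tested on simulated data. The members, the 37 gene lists and the tests were chosen with earlier results of these data known. Named genes are list members and, per direction, the 15 largest differences among called genes. These 15 needed at least 50 CPM in the higher class of each library and the same sign in both libraries. With library as block, p-values measure only how far class levels varied between these libraries beyond a shift shared by all 4 classes. Cells with both pairs or neither enter this estimate, which has 3 residual degrees of freedom. The fit also draws each gene's spread toward that of the other genes tested, so the smallest p-values rest in part on this sharing. Libraries pair the classes because both classes come from the same tube. Gene coordinates are on GRCm38, and promoters (RefSeq, GRCm38.p6) matched 118 of 158 and 130 of 176 called genes. A value after ± is an SE worked out as the absolute log2 difference divided by the square root of the test's F value. Counting intervals (95%) and floors (3 UMIs) cover counting error only. The values of 1 called gene are not reported here.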

Additional observations from a re-analysis of the deposited data

Results flagged for a closer look

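The features include a custom eGFP sequence, although the embryos are labelled wild-type. It had 1295 UMIs in replicate 1 and 548 UMIs in replicate 2, found in 943 of 30449 and 446 of 18245 barcodes. There are no control samples for it. Of the neural cells, 10 and 6 dorsal cells and 10 and 10 ventral cells held an eGFP UMI.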

How the results depend on the processing

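The counts of genes higher in dorsal and in ventral cells (158 and 176) depended on the design. They were 0 and 1 with no replicate block (244 genes at an unadjusted p under 0.05) and 55 and 55 by DESeq2. A neural gate of at least 5 UMIs gave 89 and 112, and at least 2 class UMIs gave 90 and 129. Cells thinned to 5000 UMIs gave 25 and 30. Cells without T, Nkx1-2, Cyp26a1 and Wnt3a UMIs gave 28 and 35. Cells without notochord, endoderm and surface ectoderm UMIs, a choice made after seeing the data, gave 96 and 117. The last 3 settings and the stricter cuts leave fewer cells or UMIs. Of the 334 called genes, 110 were also called by DESeq2, 176 with the stricter gate and 49 after thinning.

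Dorsal shares moved from 23.4% and 21.3% to 17.7% and 15.0% with 2 class UMIs and to 12.2% and 11.4% after thinning. Ventral shares moved from 15.5% and 20.6% to 9.72% and 12.2%, and to 7.77% and 10.98%, in the same settings. Without caudal UMIs the ventral share was 39.8% in each library and the dorsal share 18.3% in replicate 1. The stricter gate gave ventral shares of 23.0% and 27.2%. With no lower mitochondrial bound the dorsal share of replicate 1 was 19.2%. Without UMIs of other cell types it was 15.97%, and the ventral share of replicate 2 was 23.9%.

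Of 139 named genes, 131 kept their direction in each alternative in which they could be tested, but 5 kept both direction and call in each of them. Genes named by size needed the same sign in both libraries, so leaving out a replicate says little about their direction. The exceptions to a kept direction are given as log2 differences, dorsal minus ventral, and their cause was not tested. Without caudal UMIs, Pax6 was 0.52, Irx1 0.066 and Sox17 -2.16. With the stricter gate, Pax6 was 0.074 and Sox9 -0.85. Without UMIs of other cell types, Pax6 was 0.14 and Sox9 -0.38. Rbp4 was 0.35 with 2 class UMIs, and without barcodes rich in haemoglobin or visceral endoderm UMIs Rbp4 was 0.076 and Hbb-y 0.092. Sp8 was -0.071 after thinning. Leaving out each replicate gave Irx3 from -0.037 to 0.39, and Sox17 -0.15 without replicate 2.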

Other observations

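Further genes, chosen after their values were seen, separated the classes. Gadd45a, a gene of growth arrest and DNA repair, stood at 65.8 and 46.8 CPM in dorsal cells and at 15.5 and 7.22 CPM in ventral cells (log2 difference 2.30 ± 0.20, edgeR adjusted p = 1.7e-10). The same test called Btbd17, at 4.94 and 4.10 against 42.7 and 30.0 CPM, and the receptor tyrosine kinase gene Ret, at 7.64 and 9.23 against 26.9 and 53.1 CPM. Both were higher in ventral cells of each library.

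The glucose transporter genes Slc2a3 and Slc2a1 went opposite ways. Slc2a3 stood at 516 and 517 CPM in dorsal cells and at 387 and 285 CPM in ventral cells (0.62 ± 0.07, edgeR adjusted p = 1.9e-07). Slc2a1 stood at 1822 and 1035 CPM in dorsal and at 2202 and 1599 CPM in ventral cells (-0.45 ± 0.06, edgeR adjusted p = 6.5e-06). Apela and Apln, which encode ligands of the apelin receptor, were both higher in ventral cells, at 13.9 and 31.8 against 30.6 and 76.2 CPM and at 5.84 and 4.79 against 21.3 and 24.5 CPM.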
